A study of Mus musculus with 12 samples.

Results

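The 9 genes described here are Nfe2l2, which encodes the transcription factor NRF2, and 8 of its best known target genes: Hmox1, Gclm, Gclc, Srxn1, Txnrd1, Nqo1, Cbr3 and Osgin1. They were chosen from measured values, with the differences between diets on these arrays already known, so their diet differences are given as a description without a test. Every probe set annotated to 1 of these genes alone was taken, which gave 17 of the 45101 probe sets on the array. The filter on low values, which asked for an intensity of at least 100 on at least 2 of 12 arrays, kept 16 of the 17. All 9 genes were among the 12593 genes that passed it, each represented by its brightest probe set.

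The study set CLA-fed mice against LA-fed controls at 4, 12 and 24 h, with transcripts of white fat read on 12 Affymetrix arrays. CLA and LA usually stand for conjugated linoleic acid and linoleic acid, and the fat pad is called RP in the labels, which spell out none of these and do not say from when the hours run. Every combination of diet and time, 6 in all, was covered by 2 arrays. A pool of 5 mice supplied each of them, so a group mean below rests on 2 pools. Strain, sex and age are not given in the sources used here, and the spread between pools is smaller than that between single mice would be. Of 8 adipocyte markers 6 were measured here, and all 6 reached 100 on every array. Levels below are intensities scaled so that the trimmed mean of each array is 500. A fold is a ratio of scaled intensities after 16 was added to each, and levels of different genes are not compared, because probes differ in brightness.

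NRF2 is held in the cytoplasm by KEAP1, which hands it to a CUL3 ubiquitin ligase for destruction. Oxidants and electrophiles modify cysteines of KEAP1, NRF2 then reaches the nucleus, pairs with a small MAF protein and binds antioxidant response elements (AREs) near its target genes. BACH1 competes for the same elements and represses them. The targets make and recycle glutathione, reduce thioredoxin and peroxiredoxins, reduce quinones and carbonyls, and degrade heme. In adipose tissue the pathway is known for its part in redox control and in fat cell differentiation.

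Hmox1 was the member with the largest difference at 4 h, and Srxn1, Cbr3 and Gclm joined it with differences of at least 4.35-fold at 12 h. At 24 h both CLA pools were above both LA pools for all 9 genes. With limma fitted to all 12 arrays and Benjamini-Hochberg adjustment over all genes, 1 member passed 0.05 as higher with CLA at 4 h, against 0.0556% of all genes. At 12 h 4 passed, against 2.11% of all genes, and at 24 h 6 passed, against 10.7%. None was called lower, where the shares of all genes were 0% at 4 h, 2.41% at 12 h and 11% at 24 h. Both CLA pools were above both LA pools for 6, 7 and 9 of the 9 genes at 4, 12 and 24 h, against 15.8%, 24.3% and 33.1% of all genes. Because these contrasts chose the genes, nothing is read from these counts. The 4 calls at 12 h and the calls of Nfe2l2 at 24 h and Hmox1 at 4 h were lost when limma was fitted to the 4 arrays of that time alone.

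**Figure D1:**
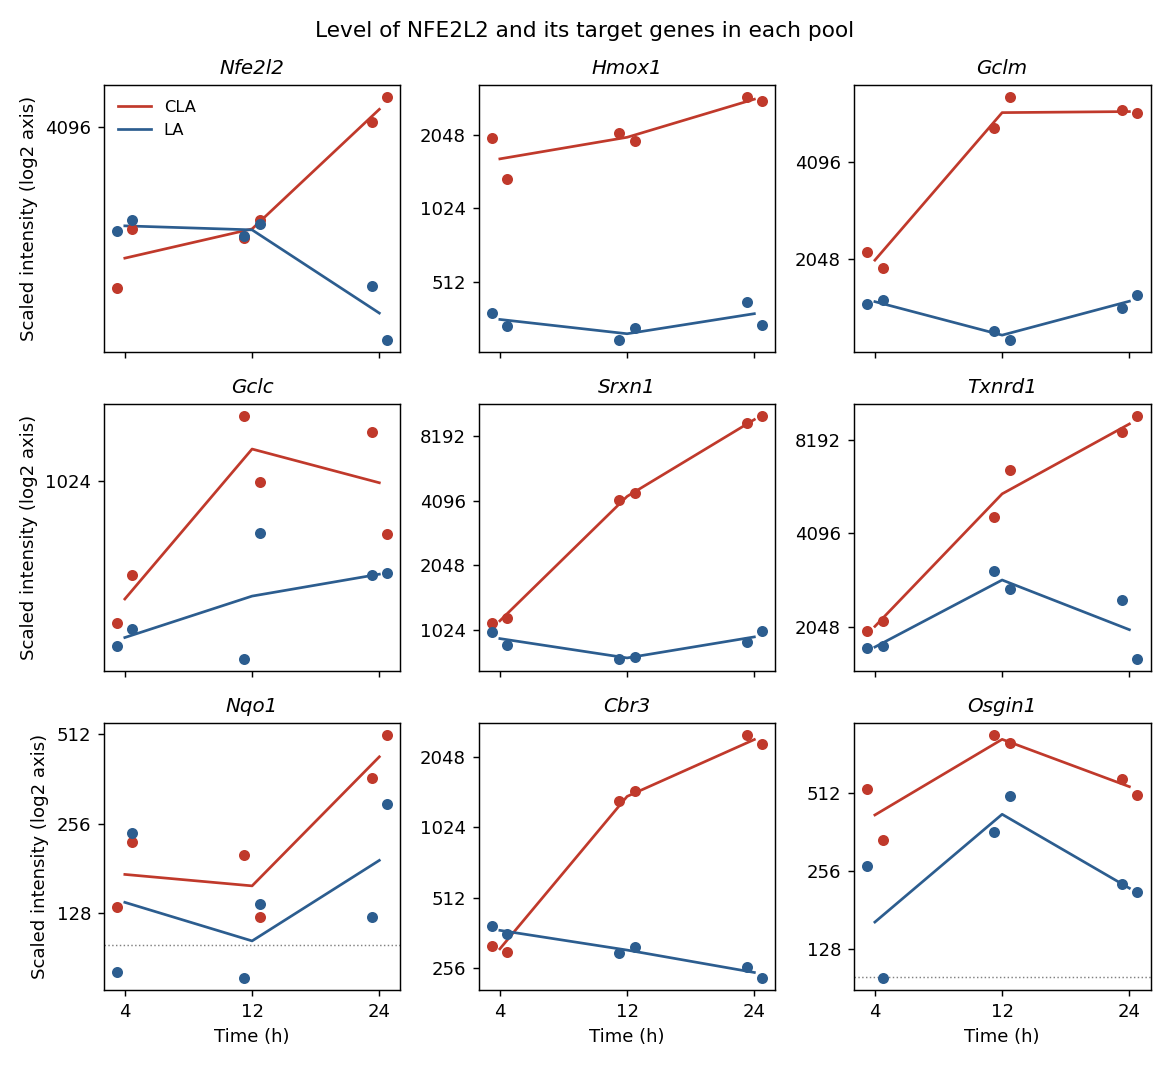
Scaled intensity (log2 axis) of each of the 9 genes against time in hours, with 1 point for each pool of 5 mice and lines through the geometric mean of the 2 CLA pools (red) and the 2 LA pools (blue). The dotted line marks 100 where a pool fell below it, and at 24 h both red points lie above both blue points in every panel.

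The windows around the start sites were searched for the ARE core on both strands, and the sequences are shown because the 9 genes are linked through this element. RefSeq promoters (GRCm38.p6) were in hand for 7 of the 9 genes, with 9 windows reaching from 250 bases before the start to 50 after it. Hmox1 and Gclc were not among them. The core TGACNNNGC was found in windows of 4 of the 7 genes, and it occurs in 14% of the 27025 genes with a window. For Gclm, Txnrd1 and Nfe2l2 the core lay upstream of the start, while that of Srxn1, TGACCTAGC on the minus strand, lay after it and is outside the bases printed. TGAGNNNGC, a form added after the first search, was found for Srxn1 and Osgin1, so that 5 of the 7 genes held either form, against 30.8% of all genes. No match was found for Nqo1 and Cbr3, which says only that these letters are not in these windows. The AP-1 element TGANTCA, present in 8.97% of all genes, was found for Srxn1 and Osgin1, each with 1 match that overlaps a TGAGNNNGC form, and Srxn1 with a further match apart from it. In the sequences below, read 5′ to 3′ along the gene, capitals mark the upstream matches, and those on the minus strand appear as their reverse complement.
Srxn1, the 250 bases before the start, chr2:152105274-152105523, plus strand: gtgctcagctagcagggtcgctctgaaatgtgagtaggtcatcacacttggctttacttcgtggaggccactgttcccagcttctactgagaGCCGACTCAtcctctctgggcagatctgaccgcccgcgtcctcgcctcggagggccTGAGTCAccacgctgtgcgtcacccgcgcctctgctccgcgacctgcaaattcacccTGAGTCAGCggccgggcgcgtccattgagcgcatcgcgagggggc
Gclm, chr3:122245393-122245461, plus strand: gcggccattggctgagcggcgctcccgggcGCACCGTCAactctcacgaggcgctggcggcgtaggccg
Txnrd1, the second annotated start, chr10:82859084-82859152, plus strand: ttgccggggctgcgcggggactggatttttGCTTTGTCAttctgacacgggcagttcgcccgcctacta
Osgin1, chr8:119437018-119437086, plus strand: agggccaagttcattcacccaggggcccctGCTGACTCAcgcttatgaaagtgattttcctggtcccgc
Nfe2l2, chr2:75704865-75704913, minus strand: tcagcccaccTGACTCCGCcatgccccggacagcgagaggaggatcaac

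Upstream of Srxn1 the capitals mark 3 elements. The first is TGAGTCGGC on the minus strand, 158 to 150 bases before the start. The middle one is an AP-1 element 102 to 96 bases before it, and the last is TGAGTCAGC, 45 to 37 bases before it, whose first letters are also an AP-1 element. The Gclm match begins 134 bases before the start, that of Txnrd1 92, that of Osgin1 99 and that of Nfe2l2 240. A match is a description of the letters and does not show that NRF2 binds there.

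Nfe2l2 itself had overlapping diets at 4 and 12 h and stood apart at 24 h, as did Nqo1. At 4 h its level was 2513 and 3009 in the CLA pools and 2983 and 3087 in the LA pools. At 12 h it was 2921 and 3093 with CLA and 2943 and 3052 with LA. At 24 h it was 4170 and 4492 with CLA and 2522 and 2145 with LA. At 24 h the CLA pools were the highest and the LA pools among the lowest of all 12. The fitted log2 difference, CLA minus LA, was -0.14 at 4 h, 0.00 at 12 h and 0.89 at 24 h (SE 0.15, n = 2 pools per group), the last a fold of 1.85. The LA pools of 24 h were also below those of 12 h, a difference that did not pass (limma's adjusted p = 0.480). A second probe set of Nfe2l2 reached 100 on only 1 array and was not used.

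Hmox1 encodes heme oxygenase 1, which splits heme into biliverdin, iron and carbon monoxide. At 4 h it was at 1976 and 1345 with CLA against 383 and 340 with LA. At 12 h the levels were 2076 and 1920 with CLA against 298 and 333 with LA, and at 24 h 2914 and 2800 against 424 and 341. The CLA pools were far above the LA pools at every time, and the LA pools stayed within 298 to 424. The log2 difference was 2.13 at 4 h, 2.60 at 12 h and 2.86 at 24 h (SE 0.21, n = 2 pools per group), or 4.37-, 6.08- and 7.24-fold. In the authors' deposited tables the ratios were 5.48, 7.93 and 19.9. The 4 h call was lost on leaving out any 1 of the LA pools of 4 or 12 h or of the CLA pools of 24 h. The difference was 1.85 when the first CLA pool of 4 h, whose 18S signal stood apart was left out.

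Gclm and Gclc encode the modifier and the catalytic subunit of glutamate-cysteine ligase, which carries out the first step of glutathione synthesis. Gclm was at 2159 and 1921 with CLA against 1494 and 1538 with LA at 4 h. It was at 5214 and 6506 against 1234 and 1155 at 12 h, and at 5936 and 5800 against 1450 and 1593 at 24 h. The CLA pools lay above the LA pools at each time, and those of 12 and 24 h overlapped each other. The log2 differences of Gclm were 0.42, 2.27 and 1.94 (SE 0.15, n = 2 pools per group), or 1.34-, 4.83- and 3.83-fold. Its second probe set gave 0.13, 1.46 and 1.68.

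Gclc, the catalytic subunit, differed far less than Gclm. It was at 675 and 778 with CLA against 631 and 664 with LA at 4 h, at 1237 and 1021 against 608 and 878 at 12 h, and at 1183 and 876 against 776 and 782 at 24 h. No CLA pool fell below an LA pool of its time, but the gaps were narrow next to the spread between pools. The log2 differences were 0.16, 0.61 and 0.38 (SE 0.22, n = 2 pools per group), or 1.12-, 1.53- and 1.30-fold. The other probe set of Gclc gave 0.05, 1.04 and 0.60.

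Srxn1 encodes sulfiredoxin, which repairs overoxidised peroxiredoxins, and had the largest fitted difference of the 9 genes at 24 h, close to that of Cbr3. Its level was 1098 and 1156 with CLA against 1001 and 866 with LA at 4 h. It was 4118 and 4472 against 748 and 764 at 12 h, and 9460 and 10155 against 894 and 1005 at 24 h. The LA pools stayed between 748 and 1005 throughout, while the CLA pools of each later time were above those of the earlier one. The log2 differences were 0.27, 2.48 and 3.35 (SE 0.14, n = 2 pools per group), or 1.21-, 5.58- and 10.2-fold. Among the 12593 genes ordered by the log2 difference, Srxn1 held rank 2701 at 4 h, 39 at 12 h and 45 at 24 h. The other members ranged from 29 for Hmox1 to 5959 for Nfe2l2 at 12 h, and from 56 for Cbr3 to 3599 for Gclc at 24 h. As these contrasts chose the genes, nothing is read from the ranks.

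The 3 other probe sets of Srxn1 gave 2.49, 2.31 and 2.35 at 12 h and 2.64, 2.97 and 3.71 at 24 h. All 4 probe sets thus had the CLA pools higher at 12 and 24 h. At 4 h they were spread around a small difference, with -0.14, 0.57 and 0.64 beside the 0.27 of the brightest.

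Txnrd1 encodes the cytosolic thioredoxin reductase, which keeps thioredoxin reduced with NADPH. It was at 1982 and 2135 with CLA against 1755 and 1778 with LA at 4 h. At 12 h the levels were 4613 and 6516 against 3108 and 2705, and at 24 h 8685 and 9731 against 2492 and 1618. The diets stood apart at each time, and the LA pools of 12 h were higher than those of 4 and 24 h. The log2 differences were 0.22, 0.92 and 2.19 (SE 0.24, n = 2 pools per group), or 1.16-, 1.89- and 4.55-fold. The other 2 probe sets of Txnrd1 were dim, with 2 arrays each at 100 or more. Averaging all its probe sets gave -0.04 at 12 h and 0.95 at 24 h, and the 24 h call was lost.

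**Figure D2:**
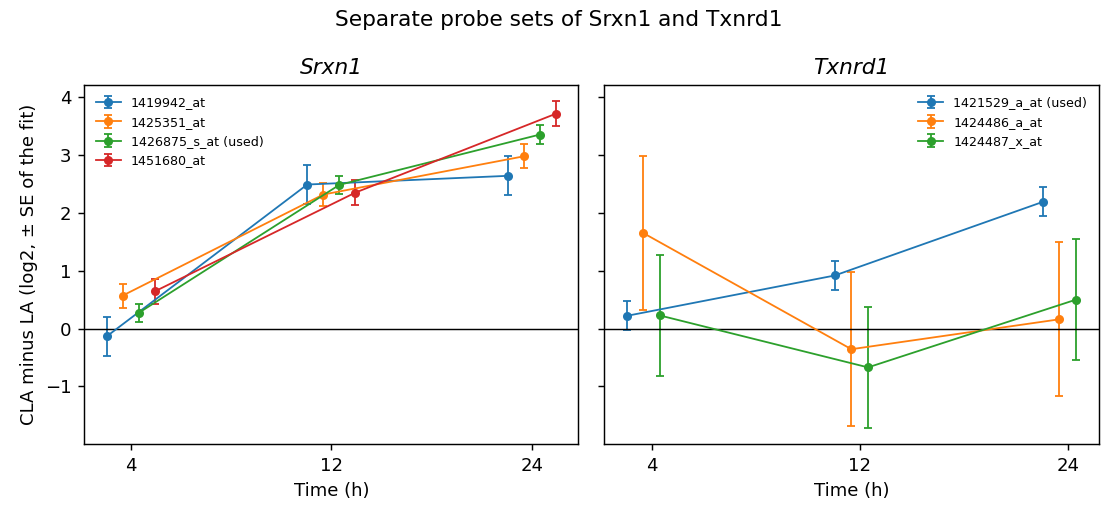
Log2 difference, CLA minus LA, against time in hours for each probe set of Srxn1 (left) and Txnrd1 (right), with bars of ± 1 SE from the limma fit of all probe sets and n = 2 pools per group. All 4 probe sets of Srxn1 lie above 2.3 at 12 and 24 h, while of Txnrd1 the brightest reaches 2.19 at 24 h and the 2 dim ones have wide bars that cross 0 at 12 and 24 h.

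Nqo1 encodes a quinone reductase that is a classical marker of NRF2 activity, but its signal here was faint. At 4 h it was at 134 and 223 with CLA against 81.2 and 239 with LA, and at 12 h at 201 and 125 against 77.5 and 138. At 24 h it was at 365 and 508 against 125 and 298. The diets overlapped at 4 and 12 h, and 10 of the 12 pools reached 100. The log2 differences were 0.27, 0.54 and 1.09 (SE 0.56, n = 2 pools per group), the last a fold of 2.12. Each of these differences was below 2 SE. With the dim LA pools set at 100 the folds at 4 and 12 h were 1.10 and 1.31. Without the first LA pool of 4 h the log2 difference at 4 h was -0.43, so its sign was not fixed.

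Cbr3 encodes a carbonyl reductase and was the only one of the 9 genes with both CLA pools below both LA pools at any time. At 4 h it was at 320 and 299 with CLA against 386 and 357 with LA. At 12 h the levels were 1317 and 1455 against 297 and 314, and at 24 h 2520 and 2325 against 259 and 232. The order of the diets was thus opposite at 4 h and at the later times. The share of all genes with both CLA pools below both LA pools was not counted, so nothing is read from the order at 4 h. The log2 differences were -0.25, 2.12 and 3.22 (SE 0.14, n = 2 pools per group), which is 1.19-fold lower, 4.35-fold higher and 9.33-fold higher. The difference at 4 h was below 2 SE. The ratios in the authors' deposited tables were 0.603, 6.34 and 9.31.

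Osgin1 encodes an oxidative stress induced growth inhibitor. At 4 h it was at 530 and 337 with CLA against 268 and 98.9 with LA, at 12 h at 858 and 800 against 362 and 499, and at 24 h at 584 and 506 against 228 and 213. The CLA pools were higher at each time, with about the same distance throughout. The log2 differences were 1.28, 0.94 and 1.24 (SE 0.40, n = 2 pools per group), or 2.43-, 1.91- and 2.37-fold. The 4 h value rested on the dim second LA pool: without it the log2 difference was 0.63, and the authors' deposited table gave a ratio of 1.35 at 4 h.

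**Figure D3:**
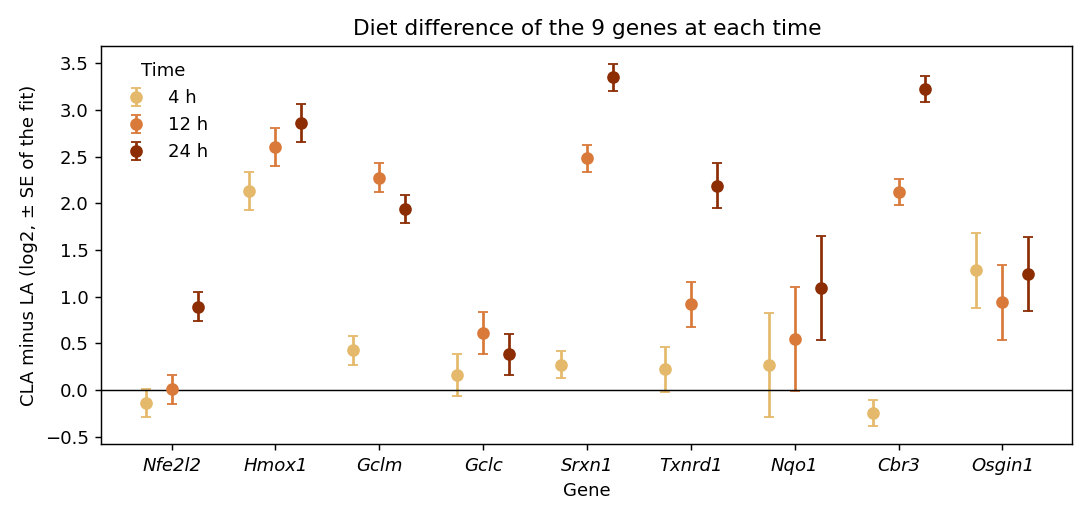
Log2 difference, CLA minus LA, of the 9 genes at 4, 12 and 24 h, with bars of ± 1 SE of the limma fit and n = 2 pools per group. Hmox1 lies above 2 at all 3 times, Srxn1, Gclm and Cbr3 are near 0 at 4 h and above 2 at 12 h, and Nfe2l2 departs from 0 at 24 h.

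The 9 genes did not share a single profile over the 12 pools. Likeness was measured as the root mean square (RMS) difference between log2 values after subtracting each gene's own mean, where 0 would be the same profile. Srxn1 and Cbr3 were the closest pair, at 0.299, and Srxn1 and Nfe2l2 the farthest apart, at 1.17. Over all 12593 genes, the nearest to Srxn1 were Cbr3 (0.299), Stx11 (0.417) and Maff (0.432), and the nearest to Cbr3 were Ctps (0.268), Srxn1 (0.299) and Casp4 (0.340). Another member was thus among the nearest genes of Srxn1 and of Cbr3, and of none of the other 7 members.

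Hmox1 lay nearest to Ppp1r15a (0.387), Atf3 (0.393) and Ccn1 (0.487), and Gclm to Zfand2a (0.246), Sqstm1 (0.262) and Mocos (0.263). Txnrd1 lay nearest to Uhrf1bp1l (0.236), Fip1l1 (0.243) and Abhd4 (0.248), and Nfe2l2 to Rab21 (0.107), Rap1b (0.120) and Srsf3 (0.121). For Nfe2l2 these distances have to be read against its own RMS of 0.277 around its mean, and for Gclm against 0.933. The 3 genes nearest to Gclc were Ubxn7, Nmt1 and Nup93, those nearest to Nqo1 were Bzw2, 1500015A07Rik and Gprc5a, and those nearest to Osgin1 were Zkscan14, Trim36 and Zkscan1. All points share the same 12 pools, so the likenesses are descriptions of these arrays.

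Within the LA pools, no member passed the test between any times. The LA pools are also the controls of the diet contrasts, so this test is not wholly apart from the choice of genes. In limma, 0 of 9 members passed an adjusted 0.05 from 4 to 12 h, from 12 to 24 h and from 4 to 24 h, with 2, 1 and 2 of 9 at an unadjusted p under 0.05. Of all genes 0.00794%, 0.0159% and 0% passed, and 2162, 1288 and 1032 had an unadjusted p under 0.05. The largest member value was that of Osgin1 from 4 to 12 h, with a log2 difference of 1.29 ± 0.40 (SE) and limma's adjusted p = 0.200. Txnrd1 had 0.71 ± 0.24 from 4 to 12 h (limma's adjusted p = 0.220), and Cbr3 had -0.57 ± 0.14 from 4 to 24 h (limma's adjusted p = 0.387). For Nfe2l2 the difference from 4 to 24 h was -0.38 ± 0.15 with limma's adjusted p = 0.564. As a measure of RNA integrity, signal at the 3′ end of Actb was 3.80 to 6.41 times that at the 5′ end on the 12 h arrays and 2.35 to 4.13 times on the others, and its part in the contrasts with 12 h was not tested.

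A list of 45 other genes of the pathway, of which 38 were measured and kept, shows how far the differences reached beyond the 9. The list was written with earlier results of these data known, so its counts are read only beside those of all genes. At 4 h none of the 38 passed in either direction by limma, with 2 at an unadjusted p under 0.05, against 866 of all 12593 genes, and none in the authors' deposited table. At 12 h 6 of 38 were higher with CLA and 1 was lower, beside the 2.11% and 2.41% of all genes given above. At 24 h 13 were higher and 7 lower, beside 10.7% and 11%. The median log2 difference of the 38 was 0.09, 0.26 and 0.30 at 4, 12 and 24 h, and that of all genes 0.01, -0.02 and 0.02. Both CLA pools were above both LA pools for 4, 20 and 19 of the 38, beside the 15.8%, 24.3% and 33.1% of all genes.

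**Figure D4:**
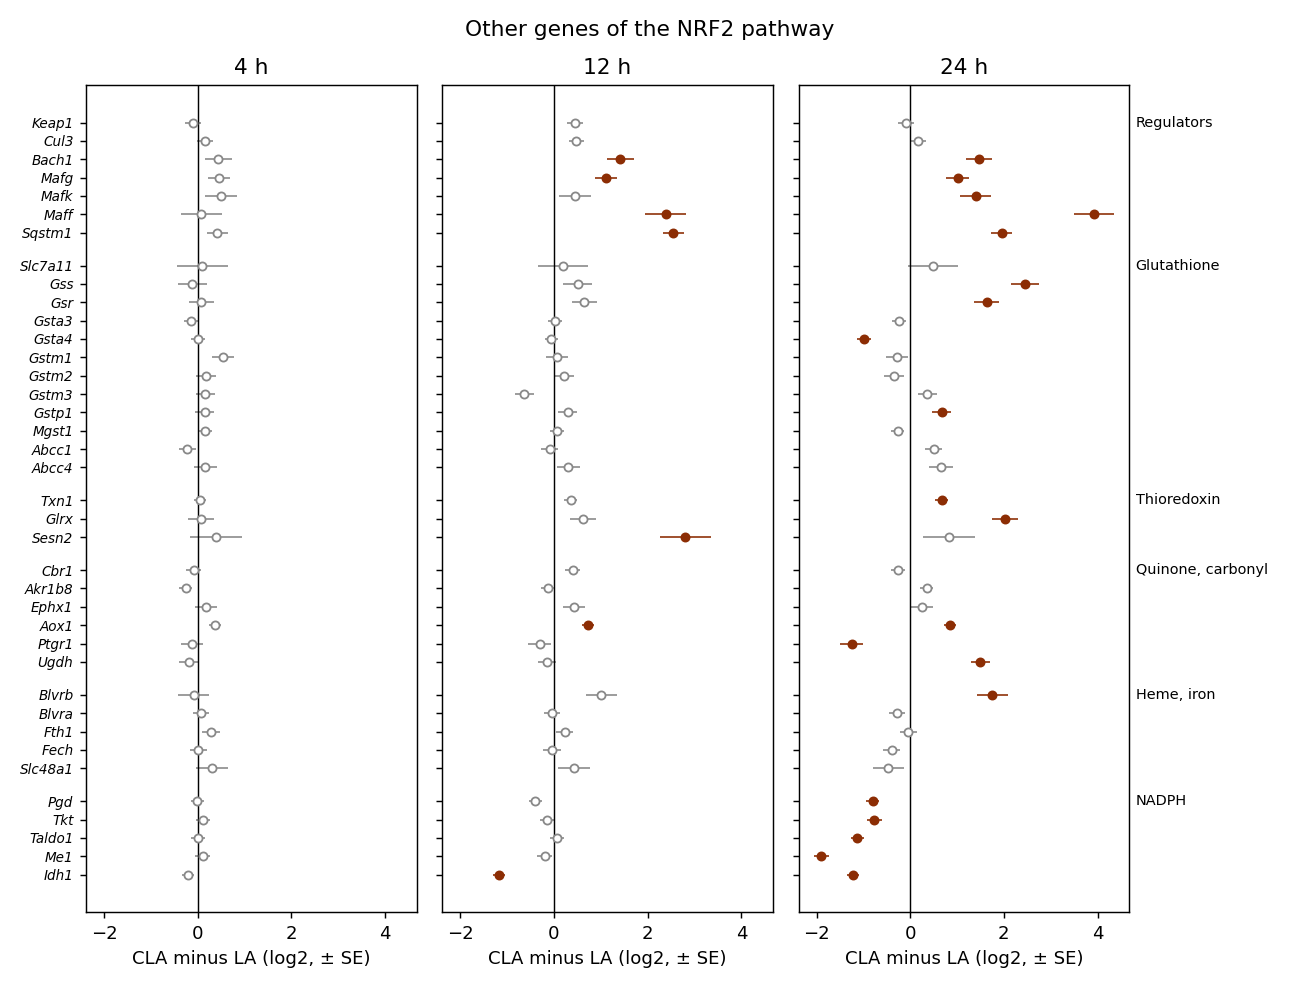
Log2 difference, CLA minus LA, with bars of ± 1 SE of the limma fit (n = 2 pools per group), for the 38 other pathway genes at 4, 12 and 24 h, grouped by role. Filled points passed an adjusted 0.05: none at 4 h, 7 at 12 h and 20 at 24 h, with all 5 NADPH enzymes below 0 at 24 h.

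Regulators and partners of NRF2 were higher in 4 of 7 measured cases at 12 h and in 5 of 7 at 24 h, and none was lower. The counts of this and the following groups are read only beside the shares of all genes. These were 2.11% higher and 2.41% lower at 12 h, and 10.7% and 11% at 24 h. Maff, a small MAF partner, was at 1135 and 1277 with CLA against 181 and 261 with LA at 12 h, and at 2167 and 2770 against 146 and 148 at 24 h. That is 5.22-fold at 12 h (limma's adjusted p = 0.0233) and 15.1-fold at 24 h (0.00101), the largest difference of the list. Sqstm1, the adaptor p62 that binds KEAP1 and is itself an NRF2 target, was 5.84-fold higher at 12 h (limma's adjusted p = 0.00221) and 3.87-fold at 24 h (0.00129). Its CLA pools lay between 17249 and 21132 at these times and its LA pools between 2786 and 5420.

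Bach1, the repressor, was higher too, 2.67-fold at 12 h (limma's adjusted p = 0.0326) and 2.77-fold at 24 h (0.00912), after a log2 difference of 0.44 ± 0.28 (SE) that did not pass at 4 h. Mafg was 2.16-fold higher at 12 h (limma's adjusted p = 0.0409) and 2.02-fold at 24 h (0.0205), and Mafk 2.63-fold at 24 h (0.0216). A second Mafg probe set of similar peak level gave log2 differences of 1.43 at 12 h and 0.26 at 24 h. With the mean of the probe sets the 24 h call of Mafg was lost. Keap1, the sensor, had log2 differences of -0.11, 0.45 and -0.09 at 4, 12 and 24 h (SE 0.17), with limma's adjusted p = 0.953, 0.193 and 0.750. A dimmer second probe set of Keap1, with a peak level of 195, gave -0.26, 1.06 and -1.25.

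Of the 12 genes for glutathione and cystine, 0 passed at 12 h, and 3 were higher and 1 lower at 24 h. Gss, which completes glutathione synthesis, was at 936 and 1194 with CLA against 150 and 215 with LA at 24 h, 5.48-fold higher (limma's adjusted p = 0.00160). Gsr, which reduces oxidised glutathione, was 3.10-fold higher (limma's adjusted p = 0.00473), and the transferase gene Gstp1 1.60-fold (0.0480). Gsta4, a transferase for products of lipid peroxidation, was 1.98-fold lower (limma's adjusted p = 0.00341). Slc7a11, the cystine carrier and a well known NRF2 target, was below 100 in all 4 pools of 4 h and in 3 of 4 at 12 h, so no difference could be measured there. At 24 h it was at 164 and 270 with CLA against 99.7 and 208 with LA, which overlapped and did not pass (limma's adjusted p = 0.565).

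The thioredoxin group held 3 measured genes, of which 1 was higher at 12 h and 2 at 24 h. Txn1, the thioredoxin that Txnrd1 reduces, was 1.60-fold higher at 24 h (limma's adjusted p = 0.0110), and the glutaredoxin gene Glrx 4.08-fold, at 3182 and 3402 with CLA against 760 and 829 with LA (0.00226). Sesn2, a stress-induced sestrin, was higher at 12 h by 2.80 on the log2 scale (limma's adjusted p = 0.0297), with both LA pools below 100. With these pools set at 100 it was at least 1.65-fold higher. The call of Sesn2 was lost with no filter and in the authors' deposited table.

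Among 6 genes for quinones, carbonyls and foreign compounds, Aox1, an aldehyde oxidase, was 1.65-fold higher at 12 h (limma's adjusted p = 0.0213) and 1.81-fold at 24 h (0.00314). Ugdh, which makes the donor for glucuronidation, was at 7105 and 8089 with CLA against 2614 and 2726 with LA at 24 h, 2.83-fold higher (limma's adjusted p = 0.00193). Ptgr1, a reductase of eicosanoids, was 2.38-fold lower at 24 h (limma's adjusted p = 0.00888). Of 5 genes for heme and iron, Blvrb, for biliverdin reductase B, was 3.37-fold higher at 24 h (limma's adjusted p = 0.00850). The other 4 did not pass.

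The NADPH enzymes went the other way. Of 5 measured, 1 was lower at 12 h and all 5 at 24 h. Me1, the cytosolic malic enzyme, was at 12082 and 15322 with CLA against 49949 and 51681 with LA at 24 h, 3.73-fold lower (limma's adjusted p = 0.000420). Idh1, the cytosolic isocitrate dehydrogenase, was 2.25-fold lower at 12 h (limma's adjusted p = 0.00457) and 2.33-fold lower at 24 h (0.000794). In the pentose phosphate pathway, Taldo1 was 2.18-fold lower at 24 h (limma's adjusted p = 0.00179), Pgd 1.74-fold (0.00579) and Tkt 1.70-fold (0.0111). In fat cells these enzymes also supply NADPH for fatty acid synthesis, so the group belongs to more than the NRF2 pathway. The Tkt probe set used reached 84.4% of the brightest value on an array, and the other 2 probe sets of Tkt gave -2.85 and -1.89 on the log2 scale.

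Some of these calls rest on single pools or on the settings. At 12 h the count of 6 higher genes was 1 on leaving out any 1 of the CLA pools of that time or the second LA pool, and 2 on leaving out the first LA pool. It was 3 when the first CLA pool of 24 h was left out. Sqstm1 and Idh1 passed at 12 h without each of the 12 pools in turn, Sesn2 without 9, Maff without 8, Aox1 without 7, Bach1 without 5 and Mafg without 4. At 24 h the count of 13 was 7 when the second CLA pool of that time was left out, and Gstp1 passed without only 2 of the 12 pools in turn. The counts behind the shares of all genes moved as well. On leaving out any single pool of 12 h, the genes higher with CLA at 12 h numbered 40 to 67 in place of 266 and the genes lower with CLA at 12 h 17 to 90 in place of 303, and on leaving out a CLA pool of 24 h they numbered 140 to 165 and 162 to 184. On leaving out any single pool of 24 h, the calls at 24 h numbered 501 to 866 higher and 606 to 802 lower. With the arrays left at their deposited brightness, the count of 7 lower pathway genes at 24 h was 3. That setting brought the median of all genes at 24 h to 0.23 on the log2 scale and the counts of genes higher with CLA at 24 h and genes lower with CLA at 24 h to 1278 and 508, against 1349 and 1380.

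The diet effect itself differed between times for 10 of the 38 pathway genes from 4 to 24 h and for 3 from 12 to 24 h, by limma's interaction contrast. Of all genes 6.88% and 2.29% passed these contrasts, and 0.0238% passed from 4 to 12 h, where no pathway gene did. Maff had the largest increase of the diet effect from 4 to 24 h, 3.84 on the log2 scale (limma's adjusted p = 0.0139), and Gss the next, 2.57 (0.0160). Glrx with 1.96 and Ugdh with 1.70 followed (limma's adjusted p = 0.0282 and 0.0149). Me1 had the largest decrease, -2.00 from 4 to 24 h and -1.70 from 12 to 24 h (limma's adjusted p = 0.00453 and 0.0166). Ugdh was the only pathway gene with a higher diet effect at 24 than at 12 h that passed, by 1.64 (limma's adjusted p = 0.0311).

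Of 8 measured paralogues of the 9 genes, among them Cbr1 of the pathway list, 2 were lower at 24 h by limma, beside 11% of all genes. None was called higher at 4, 12 or 24 h, which is near the 0.0556%, 2.11% and 10.7% of all genes. Both CLA pools were above both LA pools for Osgin2 alone at 4 h and Cbr1 alone at 12 h, against 15.8% and 24.3% of all genes. At 24 h this held for 0 of the 8, against 33.1% of all genes. Txnrd2, the mitochondrial thioredoxin reductase, was at 168 and 330 with CLA against 633 and 749 with LA, 2.80-fold lower (limma's adjusted p = 0.0124), while the cytosolic Txnrd1 was 4.55-fold higher. Nqo2 was 1.88-fold lower (limma's adjusted p = 0.00621). Hmox2, the heme oxygenase expressed without induction, had log2 differences of 0.22, -0.25 and -0.50 at 4, 12 and 24 h (SE 0.20) that did not pass, at times when Hmox1 differed by 2.13 to 2.86. The differences between a member and its paralogue were not tested.

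Summed levels of cell markers differed between the diets at some times. At 24 h the summed level of 6 adipocyte markers was 124888 to 132768 in the CLA pools and 185250 to 197410 in the LA pools, with 4 of 6 called lower, while that of 8 macrophage markers was 36695 to 42287 against 22168 to 26486, with 5 of 8 called higher. Neutrophil markers summed to 2472 to 3361 against 742 to 761 at 24 h, where Mpo, Camp and Elane were below 100 in both CLA pools and 2 of 4 tested were called higher. Kidney and adrenal markers summed to 3117 to 4015 against 680 to 762 at 24 h. Of these, Umod, Slc34a1, Cyp11a1 and Cyp11b1 were below 100 in all 4 pools, and 1 of 2 tested was called higher. All 5 measured T cell markers were below 100 in both CLA pools of 24 h. The sums of liver markers were 3536 to 6233 against 2063 to 2167 at 4 h, 1414 to 1483 against 2265 to 3213 at 12 h and 2021 to 3449 against 7195 to 11195 at 24 h. Of 5 liver markers tested, 0, 1 and 2 were called lower at these times and none higher. The sums of skeletal muscle markers were 1881 to 4688 against 1506 to 1600 at 4 h and 3770 to 5611 against 1530 to 1743 at 12 h. None of the 7 muscle markers tested was called at either time. At 12 h the adipocyte (159297 to 181037 against 155471 to 173169) and macrophage sums (24794 to 27632 against 23072 to 24282) of the diets were close. Endothelial markers summed to 8760 to 8803 against 6245 to 7990 at 24 h, with 1 of 4 called higher. Fibroblast markers summed to 36732.5 to 37681 against 41663 to 42845 at that time, with 1 of 4 called higher and 1 lower. Of all genes 10.7% were called higher and 11% lower at 24 h. In whole tissue, fewer cells of a type and less RNA per cell cannot be told apart. The part of these markers in the differences above was not tested. The first CLA pool of 4 h stood apart with an 18S ribosomal RNA signal of 27.4, against 704 to 1432 on the other arrays; without it the counts at 4 h were 1 of 9 members and 0 of 38 pathway genes.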

How the data were processed

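The authors deposited a table of linear intensity values, 1 per probe set and array, not scaled to a common mean (array means 91.5 to 125.1); the method that summarised probes is not given in the sources used here. Per the file headers, their 3 ratio tables from Rosetta Resolver hold for each probe set a ratio, its log10, an error score and a p-value, with the test unstated. Their direction was read as CLA over LA, because the deposited log10 ratio followed the array differences between CLA and LA of the same time (Pearson's r = 0.877 to 0.977 across 10270 probe sets, which are not independent).

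Each array was scaled to a trimmed mean of 500 (2% cut at each end), negative values became 0, and log2 was taken after adding 16. Control probe sets were dropped, as were those with fewer than 2 arrays at 100 or more. Gene symbols came from the platform annotation: 34958 probe sets had 1 symbol, 932 several and 9211 none. One limma model (version 3.58.1, R 4.3.3) covered the 6 groups, with two-sided p-values adjusted by Benjamini-Hochberg at 0.05. The fit was tested on simulated data. Where pools of a group were below 100 they were set at 100 for the "at least" folds.

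The members and lists were chosen with earlier results of these data known. The genes named are the 9 members, Keap1, Bach1 and Slc7a11, list genes that passed without overlap (up to 10 per direction and time) and the 3 genes nearest to each member. Gstp1, Txn1, Hmox2, Osgin2 and Cbr1 fall outside that rule and were named after their values were seen. Rbx1, Gpx2, Prdx1, Prdx6, Aldh3a1, Ftl1 and G6pdx of the list were not analysed here. The labels do not say whether replicate numbers pair the pools, and the main fit did not pair them. The deviations of same-numbered pools correlated at -0.0906 to 0.0992 over 15 pairs of groups, which cannot exclude a shared batch. In every group the 3′ to 5′ ratio of Actb was higher in the second pool than in the first. It was 2.35 to 4.24 in the first pools and 2.82 to 6.41 in the second. The cause of this shift was not tested. The labels call the replicates biological. The number of arrays limits the precision.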

Additional observations from a re-analysis of the deposited data

Results flagged for a closer look

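The diet effect of 10 pathway genes differed between times by limma's interaction contrast, which is what singled them out. From 4 to 24 h the CLA minus LA log2 difference increased by 3.84 for Maff, 2.57 for Gss, 1.96 for Glrx, 1.70 for Ugdh, 1.55 for Gsr and 1.53 for Sqstm1. It changed by -2.00 for Me1, -1.14 for Taldo1, -1.01 for Idh1 and -0.98 for Gsta4 between the same times. From 12 to 24 h it increased by 1.64 for Ugdh and changed by -1.19 for Taldo1 and -1.70 for Me1. The adjusted p-values ran from 0.00453 for Me1 to 0.0485 for Gsr over the changes from 4 to 24 h.

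Cbr3 stood out because both CLA pools were below both LA pools at 4 h, with a log2 difference of -0.25, and above both at 12 h (2.12) and 24 h (3.22). The difference at 4 h was below 2 SE (SE 0.14). The share of all genes with both CLA pools below was not counted, while both were above for 15.8% of all genes at 4 h. Since Cbr3 was chosen on these contrasts, no test of this difference between times is given.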

How the results depend on the processing

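The members called numbered 1, 4 and 6 at 4, 12 and 24 h. Unscaled arrays gave 0 at 4 h, and fitting only the groups of the contrast gave 0 at 4 h and 0 at 12 h; the authors' deposited table gave 7 at 12 h. Leaving out each pool in turn gave 0 to 1 at 4 h. Of the other pathway genes, 6 were higher at 12 h, against 2 with unscaled arrays, 3 with no filter, 0 with only the groups of the contrast and 12 in the authors' deposited table, and 1 to 7 without each pool. The 1 lower at 12 h became 0 with only the groups of the contrast and 2 in the authors' deposited table. At 24 h the 13 higher were 7 to 14 without each pool, and the 7 lower were 3 with unscaled arrays.

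The genes higher with CLA at 12 h numbered 266 and the genes lower with CLA at 12 h 303. These counts became 72 and 120 with unscaled arrays, 165 and 168 with all probe sets in one fit, 0 and 0 with only the groups of the contrast, and 741 and 754 in the authors' deposited table. With the replicate block they were 238 and 265, and the counts of members and of pathway genes stayed within 1.5 times; the 24 h call of Gstp1 and the 12 h call of Mafg were lost. At 4 h, the genes higher with CLA at 4 h numbered 7, 2 with unscaled arrays and 38 in the authors' deposited table. Fitting only the groups of the contrast brought the genes higher with CLA at 24 h from 1349 to 693 and the genes lower with CLA at 24 h from 1380 to 648. Among the members, Nqo1 at 4 h, Txnrd1 at 12 h and Nfe2l2 at 12 h took the other sign of their log2 difference under an alternative, and no called difference reversed. The members' differences, called ones included, moved by more than the spread between pools in 53 cases, and the named pathway genes lost their call in 88. In the LA pools 0 members passed under every alternative run. The differences of diet effects between times were not rerun. Where fewer arrays entered, fewer degrees of freedom were left; the other causes were not tested.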
